A study of Mus musculus with 66 samples.

Results

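The TRAF adaptors, the cIAP ubiquitin ligases and the kinase NIK stand directly below CD40 in B cells. Their genes were taken by symbol: Traf1 to Traf6, Birc2, Birc3 and Map3k14. All 9 were found among the 23420 gene symbols of every file, and all 9 were among the 11264 genes tested. RNA was measured in 66 libraries of splenic B cells from BALB/c mice (MEG) transgenic for the B1-8 antigen receptor as IgM, an allele that every group shared. The mice's age and sex were not given in the sources used here, nor was how the germinal centres were raised or whether replicates came from separate animals. Germinal centre (GC) and naive B cells were bead-purified and cultured for 2 h or 4 h. Library set A held cells given IL-21, anti-CD40 (replicates 1 to 3) or the pair, in 34 libraries and 12 groups of 2 or 3. Set B held unstimulated cells, anti-CD40 (replicates 4 and 5), anti-IgM, and anti-IgM with anti-CD40, in 32 libraries and 16 groups of 2.

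CD40 has no enzyme activity of its own and signals by binding TRAF proteins when T cell help, here mimicked by an antibody, clusters it. In resting B cells TRAF2, TRAF3 and the cIAPs (encoded by Birc2 and Birc3) form a complex that marks NIK, the product of Map3k14, for destruction; CD40 engagement turns the ligases onto TRAF3, NIK accumulates, and the noncanonical NF-kB pathway opens. TRAF6 binds CD40 at a separate site and feeds the canonical pathway, while TRAF1 and cIAP2 are known products of NF-kB target genes. Much of this control acts on protein, which was not measured: the values below are transcript levels only. Anti-IgM crosslinks the B cell receptor, and IL-21 is a cytokine of follicular helper T cells.

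Expression is given as the deposited log2 value of each library, whose depth is unknown. An effect is a log2 fold change ± standard error, the mean of the 2 h and the 4 h difference, from a limma fit within 1 library set. It was called at an adjusted p under 0.05 (Benjamini-Hochberg over the genes tested). Levels were not compared between sets, nor between genes, since the values are not per length. Marker lists were checked against the labelled cell types. The summed level of 6 GC markers lay between 8.83 and 11.32 in GC libraries and between 5.64 and 8.59 in naive ones, without overlap within a set. Among them S1pr2, Mef2b and Mybl1 were separate between the cell types in both sets, Fas overlapped in both, and in set A the median of Bcl6 was 6.20 in GC and 6.49 in naive libraries. Of 6 T cell markers 5 stayed at or below 2.38 in every library, and Lck stood between 5.89 and 9.57. The summed level of the myeloid list (6 of 7 markers in the files) lay lower in GC libraries of set B (2.85 to 4.86) than in naive ones (5.81 to 8.10), and its part in differences between the cell types was not tested. In bulk RNA a lower level in fewer cells and less RNA per cell cannot be told apart.

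A property of set B bears on which members could be called there. The file headers number the libraries of each group 1 and 2, with anti-CD40 replicates 4 and 5 numbered in the same way. Traf3 was lower in number 2 than in number 1 in all 8 GC groups, by a median of -0.72, and higher in number 2 in all 8 naive groups, by a median of 0.95. Traf6 did the same, at -0.67 in GC and 0.68 in naive cells, and so did Map3k14, at -0.35 and 0.72. Traf2 went the other way, with 0.38 in GC and -0.35 in naive cells, and Traf5 at 0.39 and -0.40. Traf1, Traf4, Birc2 and Birc3 had medians between -0.07 and 0.17, with groups of either sign. Over the 11264 genes the mean difference between numbers had opposite signs in the 2 cell types for 85.3% of genes, with a correlation of -0.93 across genes, which share their libraries. The fit without replicate numbers counts these gaps as error, so for set B values with the header number as a block within cell type are given wherever the block changes a call. For set A only counts are given. There the block moved naive counts from 5 to 6 for IL-21 added to anti-CD40 and from 4 to 5 for 4 h against 2 h of anti-CD40. The difference between cell types in the effect of added IL-21 went from 1 to 2 members.

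**Figure D1:**
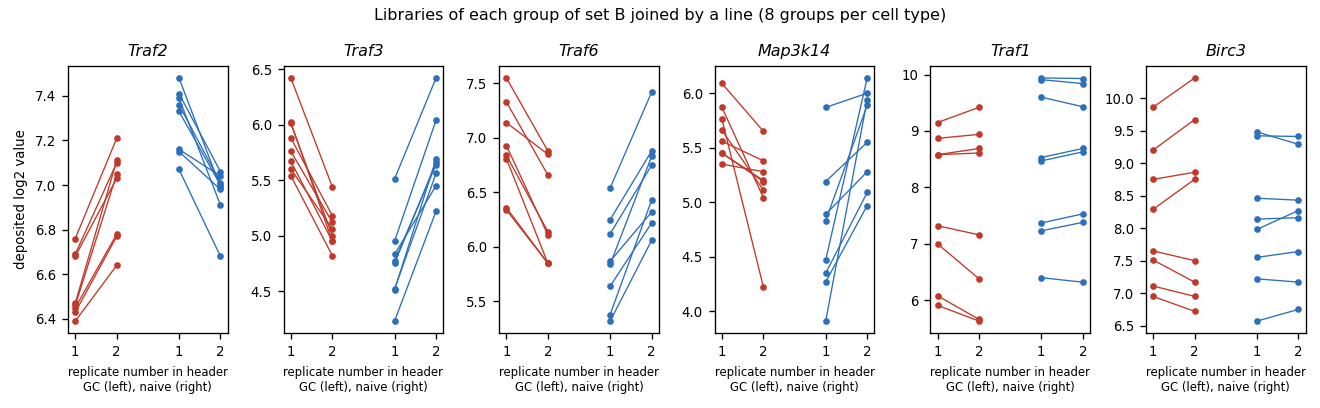
Deposited log2 values (vertical axis) of the set B libraries with header number 1 and 2 (horizontal axis), GC in red and naive in blue, with a line joining the libraries of each group. Lines for Traf2, Traf3, Traf6 and Map3k14 slope in opposite directions in the 2 cell types, while Traf1 and Birc3 are each higher in number 2 in 4 of 8 groups of each cell type and lower in the other 4.

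Without the block, the same 5 members were called with anti-CD40 alone in both cell types. In GC B cells Traf1, Birc3, Birc2 and Traf4 rose and Traf5 fell, 4 of 9 up against 7.49% of all genes tested and 1 of 9 down against 6.45%. In naive B cells the same 4 rose, against 13.9% of all genes, and Traf5 fell, against 14.8%. With the header block 6 members passed in GC and 7 in naive cells, where 3964 and 5933 of the 11264 genes tested did. The block added Traf6 in both cell types and Traf3 in naive cells, as described below. The median member was at 0.09 in GC and 0.41 in naive cells, and the median gene tested at -0.02 and 0.02. The comparisons with unstimulated cells described below share those control libraries.

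Traf1, an adaptor without the RING domain found in TRAF2 to TRAF6, gave the largest rise of the 9. In GC B cells it stood at 5.91 and 5.63 after 2 h and 6.08 and 5.66 after 4 h without stimulus, and at 8.58 and 8.61, then 8.58 and 8.69, with anti-CD40. In naive B cells it stood at 7.37 and 7.53, then 6.40 and 6.32, without stimulus, and at 9.91 and 9.84, then 9.94 and 9.93, with anti-CD40. Stimulated and unstimulated libraries did not overlap in either cell type, and unstimulated GC libraries lay below every unstimulated naive one. The effect was 2.79 ± 0.13 in GC (6.94-fold, adjusted p = 2.3e-11) and 3.0 ± 0.13 in naive cells (8.0-fold, adjusted p = 5.1e-12). Without stimulus Traf1 fell between 2 h and 4 h in naive cells by 1.09 (SE 0.18, adjusted p = 5.8e-04; 7.17% of all genes tested fell and 7.95% rose there). It was the only member of the 9 called there without the block, and with the header block Birc2 (0.53 ± 0.17, adjusted p = 0.014) and Map3k14 (0.85 ± 0.34, adjusted p = 0.05 after rounding) passed as well, 3 of 9 against 41.8% of all genes. In GC cells limma called 0 of 9 (0.213% of all genes), with 0 at an unadjusted p under 0.05 and 0 with the block. Under anti-CD40 the naive level held, so the anti-CD40 effect was larger at 4 h by 1.15 ± 0.25 (adjusted p = 0.022; 0.941% of all genes passed upward). That call was lost in 7 of 8 fits that left out 1 library, all but the one without 2 h anti-CD40 replicate 4, with adjusted p between 0.057 and 0.098.

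The cIAP genes rose more in GC than in naive B cells. Birc3, which encodes cIAP2, stood at 7.65, 7.50, 7.51 and 7.17 in unstimulated GC libraries (2 h, then 4 h) and at 9.20, 9.67, 9.86 and 10.31 with anti-CD40. Naive libraries stood at 7.98, 8.27, 8.46 and 8.43 without stimulus and at 9.42, 9.41, 9.48 and 9.29 with it. All stimulated libraries lay above all unstimulated ones, and GC cells, which started lower, ended at about the naive level or above. The effect was 2.30 ± 0.13 in GC (4.93-fold, adjusted p = 4.1e-10) and 1.12 ± 0.13 in naive cells (2.17-fold, adjusted p = 3.1e-06).

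Birc2, which encodes cIAP1, lies beside Birc3 on chromosome 9 with 11634 bases and no annotated gene between them in GENCODE for GRCm38. It stood at 6.58, 6.70, 6.42 and 6.88 in unstimulated GC libraries and at 7.74, 7.73, 7.98 and 8.69 with anti-CD40. Naive libraries stood at 6.50, 6.56, 7.03 and 7.09 without stimulus and at 6.86, 7.06, 7.45 and 7.47 with it. GC groups did not overlap, whereas in naive cells 2 h stimulated and 4 h unstimulated libraries interleaved. The effect was 1.39 ± 0.14 in GC (adjusted p = 8.4e-07) and 0.41 ± 0.14 in naive cells (adjusted p = 0.034). The naive call held only without 2 h anti-CD40 replicate 4; leaving out any other library of the comparison gave adjusted p from 0.065 to 0.11.

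The effect of anti-CD40 differed between the cell types for 3 members, Birc3 by 1.18 ± 0.19 (adjusted p = 8.0e-04), Birc2 by 0.97 ± 0.20 (adjusted p = 0.0075) and Traf5 by 1.68 ± 0.29 (adjusted p = 0.0016). All were more positive in GC cells, as were 2.65% of all genes tested. For Traf5 this means a smaller fall. Traf1 was not called.

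Traf5 and Traf4 moved in opposite directions. Traf5, a close relative of TRAF2 and TRAF3 that also binds CD40, stood at 6.61, 6.39, 6.92 and 6.54 in unstimulated naive libraries and at 4.71, 4.15, 4.32 and 3.75 with anti-CD40. In GC cells it stood at 6.22, 6.82, 6.0 and 6.59 without stimulus and at 5.83, 5.94, 5.30 and 5.74 with it. The groups were far apart in naive cells and close in GC cells. Traf5 fell by 2.38 (SE 0.20, adjusted p = 4.9e-08) in naive cells and by 0.71 (SE 0.20, adjusted p = 0.025) in GC cells. The GC call was lost on leaving out either 2 h anti-CD40 library, 4 h anti-CD40 replicate 4 or unstimulated replicate 2 of either time (adjusted p 0.057 to 0.15), while with the block it stood at 2.2e-05.

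Traf4, the TRAF best known outside the immune system, stood at 4.70, 5.0, 4.93 and 4.85 in unstimulated GC libraries and at 5.49, 5.66, 5.14 and 5.04 with anti-CD40. Naive libraries stood at 5.36, 5.53, 5.67 and 5.64 without stimulus and at 6.50, 6.88, 6.07 and 6.09 with it. No stimulated library overlapped the unstimulated ones of its cell type, and the 2 h libraries were the highest. Traf4 rose by 0.47 ± 0.12 in GC (adjusted p = 0.009) and 0.84 ± 0.12 in naive cells (adjusted p = 1.7e-05). Without unstimulated 2 h replicate 1 the GC effect was 0.39 with an adjusted p of 0.056.

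Traf2, Traf3, Traf6 and Map3k14, the genes of the TRAF2-TRAF3 complex, of TRAF6 and of NIK, were not called with anti-CD40 without the block. Map3k14 was lower in 4 of 4 GC differences within header number and time (-1.43 to -0.10). In naive cells it was lower in 3 of 4 (-0.68 to 0.86). Its 2 h anti-CD40 libraries lay far apart, at 4.22 and 5.76 in GC and at 4.47 and 6.14 in naive cells. Traf2 was at 0.09 in GC and 0.08 in naive cells. Traf6 stood at 7.55, 6.88, 7.14 and 6.85 in unstimulated GC libraries and at 7.33, 6.66, 6.84 and 6.14 with anti-CD40, overlapping widely. With the block, Traf6 was lower in GC cells at -0.36 ± 0.10 (adjusted p = 0.0084) and higher in naive cells at 0.42 ± 0.10 (adjusted p = 0.0016), and Traf3 was higher in naive cells at 0.35 ± 0.10 (adjusted p = 0.0049). Within header numbers the naive Traf3 difference was 0.76 and 0.76 at 2 h but 0.06 and -0.19 at 4 h. That of Traf6 was 0.52 and 0.77 at 2 h and 0.49 and -0.11 at 4 h. The difference of the Traf6 effect between cell types was -0.78 (adjusted p = 0.51 without the block and 5.2e-04 with it).

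**Figure D2:**
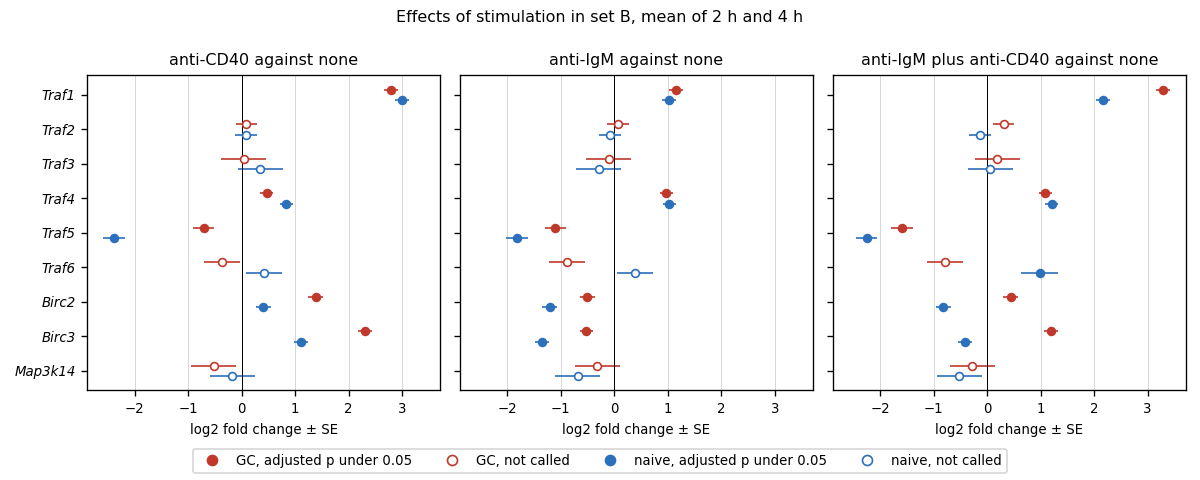
Log2 fold changes ± SE (horizontal axis) of the 9 genes against unstimulated cells of the same type in set B, filled where the adjusted p was under 0.05, GC in red and naive in blue. Traf1 is far to the right under anti-CD40 in both cell types, and Birc2 and Birc3 move from right under anti-CD40 to left under anti-IgM.

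The 250 bases before the RefSeq start of the genes with the largest rise, Traf1 and Birc3, and of Traf3, the only member with a match, were searched for the NF-kB consensus decamer on both strands. They are from RefSeq (GRCm38.p6), 5′ to 3′ on the gene's strand, and capitals mark a match.

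Traf1, chr2:34961773-34962022, minus strand: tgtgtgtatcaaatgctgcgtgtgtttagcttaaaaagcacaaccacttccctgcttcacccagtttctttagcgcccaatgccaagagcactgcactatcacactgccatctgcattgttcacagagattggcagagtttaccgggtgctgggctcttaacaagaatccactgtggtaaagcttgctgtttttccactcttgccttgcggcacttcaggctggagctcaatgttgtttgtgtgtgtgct
Birc3, chr9:7873171-7873420, minus strand: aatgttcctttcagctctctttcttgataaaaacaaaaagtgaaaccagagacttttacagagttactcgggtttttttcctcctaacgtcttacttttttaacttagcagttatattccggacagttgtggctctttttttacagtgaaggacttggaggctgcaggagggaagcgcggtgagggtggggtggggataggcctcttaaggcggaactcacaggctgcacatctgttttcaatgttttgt
Traf3, chr12:111166120-111166369, plus strand: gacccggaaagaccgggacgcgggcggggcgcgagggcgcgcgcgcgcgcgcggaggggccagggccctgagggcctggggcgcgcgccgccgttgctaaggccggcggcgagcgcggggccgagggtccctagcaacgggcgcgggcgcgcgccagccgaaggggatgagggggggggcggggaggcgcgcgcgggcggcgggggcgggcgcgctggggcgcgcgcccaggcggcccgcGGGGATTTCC

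Of all 32851 RefSeq windows of this length 7.25% held a match, and of the 9 genes 1 did. The match of Traf3, GGGGATTTCC, begins 10 bases before the start. Traf1 and Birc3 hold no such letters in these windows, which cover none of the more distant regulatory sequence.

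The rest of the CD40 pathway was described from 4 lists of receptors, kinases, TRAF regulators and partners, and NF-kB subunits and inhibitors. Of 9 NF-kB subunits and inhibitors 7 rose in each cell type and none fell, against the 7.49% of all genes higher in GC and 13.9% in naive cells (6.45% and 14.8% were lower), with medians of 1.37 in GC and 1.14 in naive cells. Nfkbia, the inhibitor IkBα, rose by 3.36 ± 0.32 in GC and 2.12 ± 0.32 in naive cells. Nfkb2 and Relb, the subunits of the noncanonical pathway, rose by 1.77 and 1.49 in GC and by 1.14 and 0.86 in naive cells. Of 8 tested receptors 2 rose in GC and 4 in naive cells; Cd40 itself rose by 2.17 ± 0.24 in GC and 1.41 ± 0.24 in naive cells. Tnfrsf13c, the BAFF receptor and another user of TRAF3, rose by 1.73 and 0.76. Of 12 kinases 2 rose in each cell type, among them Ikbke at 1.67 in GC and 2.53 in naive cells, and 2 fell in naive cells. Of 15 TRAF regulators and partners 3 rose and 3 fell in each cell type. Siah2, a ubiquitin ligase, rose by 3.45 and 2.73 and Tnfaip3, which encodes the deubiquitinase A20, by 3.06 and 3.29. Otub2, a deubiquitinase, fell by 1.75 in GC and was at -0.12 in naive cells, and Tifa, a TRAF-binding protein, fell by 1.48 in naive cells and was at -0.32 in GC. With the block 5 regulators fell in each cell type, as did 3 kinases and 1 receptor in GC and 2 receptors in naive cells, where 18% of all genes fell in GC and 25.6% in naive cells.

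Without the block, the same 5 members were called with anti-IgM in each cell type, but the cIAP genes went down. Traf1 and Traf4 rose, 2 of 9 against 5.81% of all genes in GC and 15.3% in naive cells. Traf5, Birc2 and Birc3 fell, 3 of 9 against 3.23% in GC and 15.2% in naive cells. With the header block 6 members passed in GC and 8 in naive cells, where 2650 and 6080 of the 11264 genes tested did. Birc3 stood at 6.95, 6.72, 7.11 and 6.95 in GC libraries with anti-IgM and at 7.22, 7.17, 6.57 and 6.75 in naive ones. The naive libraries lay clear of the unstimulated range given above, and the GC libraries lay just below it. Birc3 fell by 1.36 (SE 0.13, adjusted p = 2.8e-07) in naive cells and by 0.52 (SE 0.13, adjusted p = 0.015) in GC cells, and Birc2 by 1.21 (adjusted p = 2.2e-06) and 0.51 (adjusted p = 0.026).

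The GC calls of the cIAP genes with anti-IgM were fragile. That of Birc3 was lost without unstimulated replicate 1 of either time, 2 h anti-IgM replicate 2 or 4 h anti-IgM replicate 2 (adjusted p 0.065 to 0.084). That of Birc2 was lost without unstimulated replicate 2 of either time, 2 h anti-IgM replicate 2 or 4 h anti-IgM replicate 1 (adjusted p 0.10 to 0.17). With the block both stood at an adjusted p of 0.0022. The effect was less negative in GC than in naive cells by 0.83 ± 0.19 for Birc3 (adjusted p = 0.0081) and 0.70 ± 0.20 for Birc2 (adjusted p = 0.035), 2 of 9 against 5.03% of all genes. The Birc2 difference was lost in 10 of 16 fits that left out 1 library (adjusted p 0.056 to 0.10): all but those without unstimulated GC replicate 2 of either time, GC anti-IgM replicate 2 at 2 h or 1 at 4 h, or naive anti-IgM replicate 1 at 2 h or 2 at 4 h. With the block the difference also passed for Traf5 (0.72, adjusted p = 0.0012) and Traf6 (-1.28, adjusted p = 8.7e-07).

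Traf1 rose with anti-IgM by 1.15 ± 0.13 in GC and 1.03 ± 0.13 in naive cells, well short of its rise with anti-CD40. Traf4 rose by 0.97 ± 0.12 and 1.03 ± 0.12. Traf5 stood at 5.56, 5.93, 4.66 and 5.06 in GC libraries and at 5.31, 4.95, 4.51 and 4.41 in naive ones, with the 4 h libraries the lowest of each. It fell by 1.10 (SE 0.20, adjusted p = 0.0012) in GC and fell by 1.82 (SE 0.20, adjusted p = 1.4e-06) in naive cells. With the block 8 of 9 members were called in naive cells, where 54% of all genes were, adding Traf3 at -0.29, Traf6 at 0.39 and Map3k14 at -0.68, and Traf6 was added in GC cells at -0.89 (adjusted p = 5.9e-07). For each of the 3 naive additions 1 of 4 differences within header number and time had the opposite sign. These ranged from -0.54 to 0.03 for Traf3, -0.20 to 0.80 for Traf6 and -1.51 to 0.66 for Map3k14.

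Given together, anti-IgM and anti-CD40 drove the cIAP genes apart in the 2 cell types. In GC cells Traf1, Traf4, Birc2 and Birc3 rose, 4 of 9 against 13.9% of all genes, and Traf5 fell, against 12.4%. In naive cells Traf1, Traf4 and Traf6 rose, 3 of 9 against 20.7%, and Traf5, Birc2 and Birc3 fell, against 21.6%. Birc3 stood at 8.29, 8.75, 8.75 and 8.86 in GC libraries and at 8.14, 8.16, 7.55 and 7.64 in naive ones. GC libraries thus stayed above the unstimulated range, and the naive ones reached it at 2 h and lay below it at 4 h. Birc3 rose by 1.20 ± 0.13 in GC (adjusted p = 1.1e-06) and fell by 0.41 in naive cells (SE 0.13, adjusted p = 0.018), and Birc2 rose by 0.44 ± 0.14 (adjusted p = 0.027) and fell by 0.82 (SE 0.14, adjusted p = 1.1e-04).

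The differences between cell types were 1.62 ± 0.19 for Birc3 (adjusted p = 9.5e-06), 1.26 ± 0.20 for Birc2 (adjusted p = 2.7e-04), 1.12 ± 0.18 for Traf1 (adjusted p = 2.7e-04) and -1.77 ± 0.48 for Traf6 (adjusted p = 0.018). These were 3 of 9 members more positive in GC cells against 7.08% of all genes, and 1 of 9 more negative against 4.84%. The calls of the smaller effects depended on single libraries, while the effects kept their direction. With 1 library left out, the Birc2 effect in GC lay between 0.32 and 0.55. That of Birc3 in naive cells lay between -0.48 and -0.34. The Birc2 rise in GC was lost without unstimulated replicate 1 or dual-stimulated replicate 2 of either time (adjusted p 0.082 to 0.14). The Birc3 fall in naive cells was lost without 2 h unstimulated replicate 2 or 4 h dual-stimulated replicate 1 (adjusted p 0.055 and 0.083). With the block Traf2 was higher in GC cells at 0.31 (adjusted p = 0.003), and the difference between cell types passed for Traf2 (0.43) and Traf5 (0.66).

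Traf6 shows what the numbering does to a call. In naive cells it stood at 5.32 and 6.06, then 5.38 and 6.43, without stimulus and at 6.54 and 7.42, then 6.25 and 6.88, with both stimuli. In GC cells it stood at 7.55 and 6.88, then 7.14 and 6.85, without stimulus and at 6.93 and 6.11, then 6.36 and 5.85, with both. Within each number and time the dual stimulus was higher in naive cells and lower in GC cells, although the groups overlap when numbers are ignored. The naive effect was 0.98, with an SE of 0.34 without the block (adjusted p = 0.026) and an SE of 0.10 with it (adjusted p = 2.5e-08). The GC effect was -0.79 (adjusted p = 0.098, and 1.1e-06 with the block). Without the block the naive call was lost when unstimulated replicate 1 or dual-stimulated replicate 2 of either time was left out (adjusted p 0.10 to 0.14). The difference between cell types was then lost in 7 of 16 fits, those same 4 and those without GC 2 h unstimulated replicate 1 or GC dual-stimulated replicate 2 of either time (adjusted p 0.052 to 0.059).

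Adding anti-IgM to anti-CD40 lowered the cIAP genes in both cell types. In GC cells Birc3 fell by 1.10 (SE 0.13, adjusted p = 1.4e-05), Birc2 by 0.95 and Traf5 by 0.88, 3 of 9 against 3.65% of all genes. In naive cells Birc3 fell by 1.53 (SE 0.13, adjusted p = 1.3e-07), Birc2 by 1.24 and Traf1 by 0.84, 3 of 9 against 7.56%. Traf1 instead rose in GC cells, by 0.48 ± 0.13, from 8.58, 8.61, 8.58 and 8.69 to 9.15, 9.42, 8.87 and 8.94. Naive levels went from 9.91, 9.84, 9.94 and 9.93 to 9.60, 9.43, 8.53 and 8.69. The groups did not overlap in either cell type, and the direction was opposite. The difference was 1.33 ± 0.18 (adjusted p = 2.4e-04; 1.63% of all genes passed upward), in a comparison added after the data were seen. With the block Traf2 (0.42), Traf3 (0.43), Traf5 (-1.02) and Traf6 (-0.98) passed that test too. Traf4 also rose, with 2 of 9 members up against 5.66% of all genes in GC and 1 of 9 against 6.88% in naive cells.

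Some of these calls depended on single libraries. That of Traf1 in GC cells (adjusted p = 0.018) was lost without either 2 h anti-CD40 library, 4 h anti-CD40 replicate 4 or dual-stimulated replicate 2 of either time (adjusted p 0.050 to 0.10). That of Traf4 in naive cells (0.37, adjusted p = 0.037) was lost in 7 of 8 fits, all but the one without 2 h anti-CD40 replicate 5 (adjusted p 0.053 to 0.18). That of Traf5 in GC cells was lost without 4 h anti-CD40 replicate 5 (-0.77, adjusted p = 0.052). With the block Traf6 was lower in GC at -0.43 (adjusted p = 0.0033) and higher in naive cells at 0.56 (adjusted p = 1.9e-04), and Traf3 was lower in naive cells at -0.29 (adjusted p = 0.028).

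Adding anti-CD40 to anti-IgM raised Traf1 by 2.13 ± 0.13, Birc3 by 1.73 ± 0.13 and Birc2 by 0.95 ± 0.14 in GC cells, 3 of 9 against 7.16% of all genes. In naive cells it raised Traf1 by 1.13 ± 0.13 and Birc3 by 0.95 ± 0.13, 2 of 9 against 3.05%. With the block the count was 6 in each cell type, against 31% of all genes in GC and 26.9% in naive cells. Traf5 joined at -0.48 in GC and -0.43 in naive cells and Traf3 at 0.28 and 0.36, with Traf2 at 0.24 in GC, and Birc2 at 0.39 and Traf6 at 0.59 in naive cells.

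The dual effect was compared with the sum of the single effects. In naive cells Traf1 lay below the sum, at -1.87 ± 0.18 (adjusted p = 1.0e-05), and so did Traf4, at -0.66 ± 0.16 (adjusted p = 0.03), 2 of 9 against 1.65% of all genes. Traf5 lay above the sum by 1.96 ± 0.29 (adjusted p = 6.9e-04), 1 of 9 against 1.79%: its effect was -2.25 with both stimuli and -2.38 with anti-CD40 alone. This mean covers unlike times. Within header numbers the difference from unstimulated cells was -1.28 and -1.67 with both stimuli at 2 h, against -1.89 and -2.25 with anti-CD40 alone, and -2.99 and -3.04 at 4 h, against -2.60 and -2.79. The Traf4 call was lost in 12 of 16 fits that left out 1 library (adjusted p 0.050 to 0.081), all but those without 2 h anti-CD40 replicate 4, 2 h unstimulated replicate 2, 2 h anti-IgM replicate 1 or 4 h dual-stimulated replicate 1. In GC cells limma called 0 of 9 (0.16% of all genes), with 4 at an unadjusted p under 0.05; Traf1 was at -0.67 ± 0.18 and Birc3 at -0.57 ± 0.19, and with the header block Traf1 alone passed (adjusted p = 0.024). The shortfall of Traf1 differed between the cell types by 1.20 ± 0.25 (adjusted p = 0.044; 0.142% of all genes), in a comparison added after the data were seen. That call was lost in 29 of 32 fits without 1 library (adjusted p 0.051 to 0.10). It held without GC 2 h dual-stimulated replicate 1, GC 4 h unstimulated replicate 2 or GC 4 h anti-IgM replicate 1. With the block the difference also passed for Traf5 (-1.74, adjusted p = 6.6e-05).

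**Figure D3:**
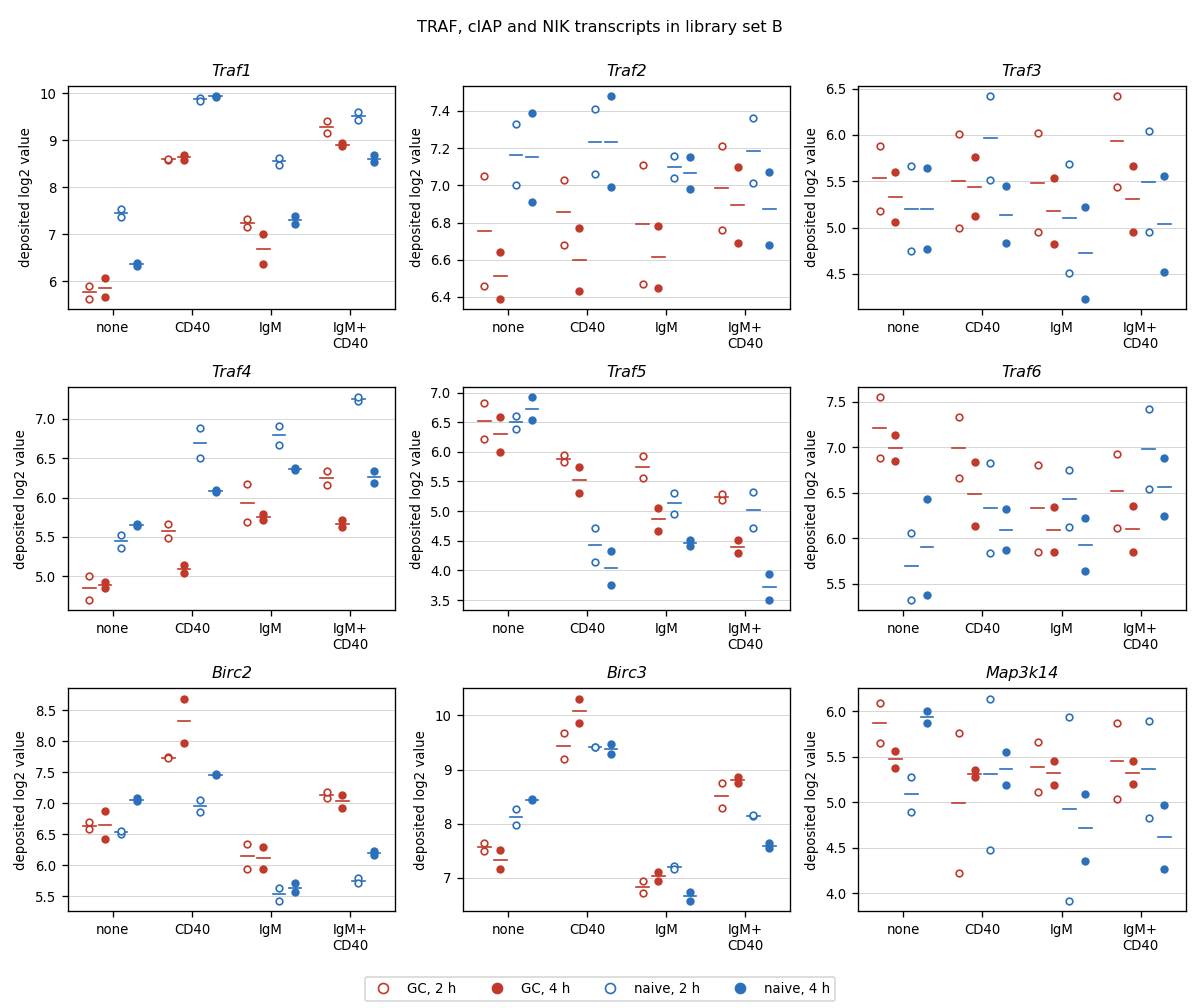
Deposited log2 value (vertical axis) of the 9 genes in each set B library by stimulus (horizontal axis), GC in red and naive in blue, open at 2 h and filled at 4 h, with a bar at the mean of each group. Birc3 with both stimuli lies between 8.29 and 8.86 in GC and between 7.55 and 8.16 in naive cells.

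Set A, which has no unstimulated cells, shows anti-CD40 against a background of IL-21. Many more genes were called there, so a call says less about the members. Adding anti-CD40 to IL-21 raised Traf1, Traf2, Traf4, Birc2 and Birc3 in GC cells, 5 of 9 against 25.5% of all genes, and lowered Traf5 and Traf6, 2 of 9 against 31.1%. In naive cells it raised those 5 and Traf3, 6 of 9 against 26.6%, and lowered Traf5, 1 of 9 against 28.6%.

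Birc3 stood at 8.72, 8.58 and 8.35 after 2 h and 7.56, 7.61 and 7.59 after 4 h in GC libraries with IL-21. With anti-CD40 added it stood at 10.78, 10.93 and 10.91, then 10.71, 10.35 and 10.25. Naive levels went from 9.08 and 9.05, then 8.41, 8.37 and 8.36, to 9.84, 9.75 and 9.42, then 9.59, 9.18 and 9.37. Groups did not overlap, and the distance was wider in GC cells. Birc3 rose by 2.58 ± 0.10 (6.0-fold, adjusted p = 3.3e-19) in GC and 0.80 ± 0.10 (1.74-fold, adjusted p = 1.4e-07) in naive cells, and Birc2 by 1.61 ± 0.05 and 0.40 ± 0.06.

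Traf1 rose by 3.29 ± 0.08 in GC and 2.21 ± 0.08 in naive cells, and Traf5 fell by 1.08 (SE 0.10) and 1.85 (SE 0.10). The effects differed between the cell types for Birc3 by 1.78 ± 0.14, Birc2 by 1.21 ± 0.08, Traf1 by 1.09 ± 0.11 and Traf5 by 0.77 ± 0.14, 4 of 9 more positive in GC against 11.2% of all genes. Traf6 differed by -0.73 ± 0.13, 1 of 9 against 10% more negative. The adjusted p of these 5 was at most 1.6e-04. Set A libraries are other samples than those of set B, and the larger cIAP effect in GC cells was measured in each.

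Adding IL-21 to anti-CD40 also moved the cIAP genes and Traf4 upward. In GC cells Traf4, Birc2, Birc3 and Map3k14 rose, 4 of 9 against 15.4% of all genes, and Traf5 and Traf6 fell, 2 of 9 against 17.8%. In naive cells Traf4, Birc2 and Birc3 rose, 3 of 9 against 10.6%, and Traf3 and Traf5 fell, 2 of 9 against 13.7%. Traf4 rose by 1.32 ± 0.16 and 0.80 ± 0.16, and Birc3 by 0.97 ± 0.10 and 0.52 ± 0.10. Traf5 fell by 0.71 and 0.87.

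Map3k14, the NIK gene, stood at 4.91 and 4.95 after 2 h and 4.08, 4.26 and 4.24 after 4 h of anti-CD40 in GC cells, and at 5.33, 5.29 and 5.08, then 5.31, 5.26 and 5.19, with IL-21 as well. In naive cells it stood at 5.35, 5.56 and 5.58, then 5.02, 5.05 and 4.88, with anti-CD40 and at 5.61, 5.66 and 5.47, then 4.93, 5.07 and 4.95, with both. The GC groups were apart and the naive groups overlapped. It rose by 0.68 ± 0.08 in GC cells (adjusted p = 3.8e-08), and the effect differed from that in naive cells by 0.64 ± 0.11 (adjusted p = 1.6e-04; 3.12% of all genes passed upward).

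**Figure D4:**
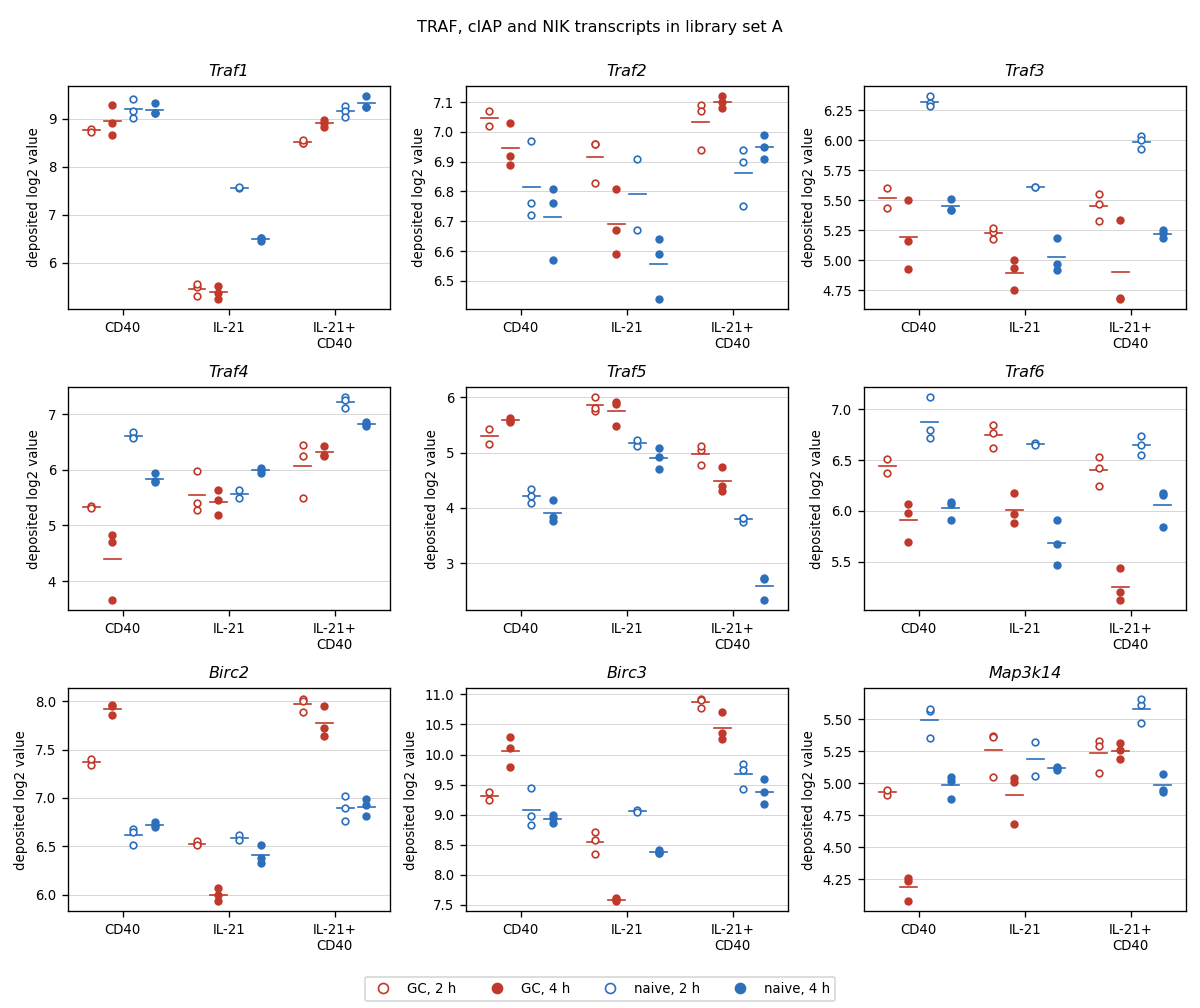
Deposited log2 value (vertical axis) of the 9 genes in each set A library by stimulus (horizontal axis), GC in red and naive in blue, open at 2 h and filled at 4 h, with a bar at the mean of each group. Map3k14 falls to between 4.08 and 4.26 in GC cells after 4 h of anti-CD40 and lies between 5.19 and 5.31 with IL-21 added.

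Between 2 h and 4 h of anti-CD40 the members parted. In set A, GC cells gained Birc3 (0.76 ± 0.15) and Birc2 (0.55 ± 0.09), 2 of 9 up against 26% of all genes, and lost Traf4 (-0.94 ± 0.25), Map3k14 (-0.74 ± 0.12) and Traf6 (-0.53 ± 0.14), 3 of 9 down against 22.1%. In naive cells limma called 0 of 9 upward, with 0 at an unadjusted p under 0.05, against 29.8% of all genes, while the cells lost Traf3 (-0.87 ± 0.13), Traf6 (-0.86 ± 0.12), Traf4 (-0.77 ± 0.22) and Map3k14 (-0.51 ± 0.10), 4 of 9 against 27.2%. Traf4 in GC cells stood at 5.34 and 5.32 after 2 h and at 3.66, 4.82 and 4.70 after 4 h, and without the low replicate 1 its fall was -0.58 (adjusted p = 0.019). The shares of members called lie near the shares of all genes, apart from the 0 members up in naive cells.

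In set B only Birc3 passed in GC cells, upward by 0.65 ± 0.19 (adjusted p = 0.035; 4.83% of all genes), and only Traf4 in naive cells, downward by 0.61 (SE 0.16, adjusted p = 0.015; 7.68%). The Birc3 call was lost without 2 h replicate 4 or 4 h replicate 5 (0.41 and 0.42, adjusted p 0.28 and 0.41), and the Traf4 call without 2 h replicate 5 or either 4 h library (adjusted p 0.071 to 0.17). With the header block 4 members passed in each cell type, against 32.6% of all genes in GC and 39.8% in naive cells. Traf4 (-0.48), Traf6 (-0.50) and Birc2 (0.60) joined in GC cells, and Traf3 (-0.82), Traf5 (-0.39) and Birc2 (0.51) in naive cells. The fall of Map3k14 in set A was not seen in set B. Its mean there went from 4.99 at 2 h to 5.31 at 4 h in GC and from 5.31 to 5.37 in naive cells. The 2 h libraries lay far apart, at 4.22 and 5.76 in GC and 4.47 and 6.14 in naive cells. The anti-CD40 effect itself at 4 h against 2 h was called by limma for 0 of 9 members in GC cells (0.497% of all genes), with 2 at an unadjusted p under 0.05. With the block Birc3 passed there at 0.88 (adjusted p = 0.025), and Traf3, Traf4 and Traf5 passed in naive cells at -0.82, -0.82 and -0.63.

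Before any stimulus 5 of 9 members were called between GC and naive cells, a share near the 53.7% of all genes tested. Traf6 was higher in GC cells by 1.31 ± 0.34 (adjusted p = 0.0031), 1 of 9 against 24.1% of all genes. Traf1 (-1.09 ± 0.13), Birc3 (-0.83 ± 0.13), Traf4 (-0.68 ± 0.12) and Traf2 (-0.52 ± 0.20) were lower, 4 of 9 against 29.6%. The Traf2 call was lost without GC or naive replicate 1 of either time (adjusted p 0.10 to 0.16). In set B the highest value of a library was 13.835 in all 8 GC libraries of number 1 and 14.582 in all 8 naive ones. It was 14.323 in every library of number 2. The scale thus appears to differ by number and, in number 1, by cell type, and its part in these levels was not tested. With GC and naive libraries of the same header number set against each other, Traf6 was higher in GC cells by 1.99 in number 1 and 0.62 in number 2. Traf3 was higher by 0.99 in number 1 and lower, at -0.53, in number 2. Traf2 was at -0.93 in number 1 and only -0.11 in number 2. A block within cell type does not remove such gaps from a comparison between cell types; with it Traf3 passed here (0.23, adjusted p = 0.042) and Traf6 passed under anti-CD40 (0.53, adjusted p = 9.1e-05), although its level there was 1.23 higher in GC cells in number 1 and at -0.18 in number 2.

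Under anti-CD40 5 members were called in the same direction in both sets. Traf5 was higher in GC cells by 1.47 ± 0.20 in set B and 1.38 ± 0.10 in set A, Birc2 by 0.82 and 0.98, and Birc3 by 0.36 and 0.68. Traf4 was lower at -1.05 and -1.36, and Traf1 at -1.29 and -0.33. Traf2 did not keep its direction, at -0.51 ± 0.20 in set B and 0.23 ± 0.06 in set A, and Traf6 was at 0.53 ± 0.34 (not called) in set B and -0.27 ± 0.09 in set A. By header number the set B value of Traf2 was -0.89 in number 1 and -0.12 in number 2. In set B 3 of 9 were higher in GC cells against 24.8% of all genes and 3 of 9 lower against 29.6%. In set A all 9 were called, 4 higher against 34.9% and 5 lower against 38.5%. In either direction 6 of 9 members were called in set B against 54.4% of all genes. In set A 73.4% of all genes were called. The set B calls of Traf2 and Birc3 were lost in 4 and 5 of 8 fits, for Traf2 without GC or naive replicate 4 of either time (adjusted p 0.13 to 0.16), and for Birc3 without naive 2 h replicate 4 or GC or naive replicate 5 of either time (adjusted p 0.059 to 0.16).

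The genes most like the called members were taken by correlation over the 16 group means of set B, centred within each cell type. They were sought among 7896 genes, from which the members themselves were left out. For Traf1 they were Ehd1 (0.95), Med11 (0.94) and Siah2 (0.94), with 0.91, 0.98 and 0.87 over the 12 group means of set A. For Birc3 they were Gbp3 (0.97), Gorasp2 (0.95) and Atp10d (0.95), with 0.83, 0.48 and 0.78 in set A. For Birc2 they were Rab21, Ifi47 and BC064078, between 0.92 and 0.94, with 0.71 to 0.77 in set A. Birc2 and Birc3, both members, correlated with each other at 0.92 in set B and 0.96 in set A. For Traf5 the nearest genes were Gng2, Fech and Peli1, between 0.94 and 0.95. For Traf4 they were Zbtb21, Btnl2 and Tagap, whose set A correlations of 0.32, 0.52 and 0.69 were lower than the 0.94 to 0.96 of set B. Traf6 had weaker neighbours in set B, Gosr1 (0.87), Nup50 (0.85) and Mapk1ip1l (0.81). The points share libraries and scaling, and these values are descriptions.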

How the data were processed

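Each library has 1 file of log2 values that the authors deposited without read counts, so sequencing depth is unknown and the number of libraries limits the precision. Per the submitters' processing notes reads were handled with STAR 2.6.1a, Trim Galore 0.6.5, FastQC 0.11.7, limma and featureCounts (Subread 2.0.1), in an order not stated, on mm10; their normalization is not given in the sources used here. Back-transformed, a library summed to between 926830 and 1065945.

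A gene was tested where at least 4 of 66 libraries exceeded a log2 value of 1. Each library set was fitted on its own with limma 3.58.1 in R 4.3.3 (trended, robust moderation, statmod 1.5.0), with 22 residual degrees of freedom in set A and 16 in set B. P-values are two-sided. There were 30 comparisons and 4 added after the data were seen. The members and lists were chosen with earlier results of these data known. All 9 members are named, with up to 4 genes of smallest adjusted p per pathway list. The 3 most correlated genes per called member are named too, taken from outside the 9. Symbols follow the files, and coordinates are from GENCODE for GRCm38.

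Replicate numbers pair the set B libraries. Deviations from group means correlated in 56 of 56 same-number pairs of header numbers in GC (0.53 to 0.73). In naive cells they did in 56 of 56 (0.59 to 0.73). In a group of 2 the deviation of number 2 mirrors that of number 1, so the pairs of number 2 repeat those of number 1. In set A 4 of 40 and 5 of 40 pairs exceeded 0.1. Since replicates may not be separate animals, p-values cover the spread among these libraries, possibly a technical one. In simulated data for anti-CD40 in GC cells, over 11264 genes, the fit recovered 52 of 100 genes changed by 1 and 83 of 100 changed by 2, with 8 false calls. Random error was drawn there for each library separately, so the gaps shared by header number were left out. These recoveries and false calls thus cannot tell how the fit performs on the real set B libraries. Alternatives were the replicate block, no filter, a stricter filter, plain moderation, low values raised to 0, and leaving out each library.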

Additional observations from a re-analysis of the deposited data

Results flagged for a closer look

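The effects that differed between GC and naive B cells by a test of the difference itself were as follows, as GC minus naive on the log2 scale. For anti-CD40 they were Traf5 (1.68), Birc2 (0.97) and Birc3 (1.18). For anti-IgM they were Birc2 (0.70) and Birc3 (0.83). For both antibodies together they were Traf1 (1.12), Traf6 (-1.77), Birc2 (1.26) and Birc3 (1.62). For anti-CD40 added to IL-21 they were Traf1 (1.09), Traf5 (0.77), Traf6 (-0.73), Birc2 (1.21) and Birc3 (1.78). The effect of IL-21 added to anti-CD40 differed for Map3k14 (0.64). The effect of anti-IgM added to anti-CD40 differed for Traf1 (1.33), as did its departure from additivity (1.20). Birc2 and Birc3 were more positive in GC cells in each of the first 4 of these. Traf6 was more negative in GC cells in both comparisons that called it, and its set B values moved with the header number in opposite directions in the 2 cell types. The part of that numbering in the result was not tested beyond the block.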

How the results depend on the processing

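No value of a member changed sign against a call under any alternative. The stricter filter changed no call, plain moderation lost 1 member call and no filter lost 9. Low values raised to 0 added 1. Leaving out 1 library lost a call in 127 fits of a member and gained one in 27. With the replicate number as a block more members were called; the blocked values stand by title number and then by header number. For anti-CD40 added to anti-IgM the count went from 3 to 6 and 6 in GC and from 2 to 6 and 6 in naive cells. For anti-IgM in naive cells it went from 5 to 8 and 8. For departure from additivity in GC it went from 0 to 2 and 1. For the anti-CD40 effect at 4 h against 2 h it went from 0 to 1 and 1 in GC and from 1 to 3 and 4 in naive cells. For 4 h against 2 h under anti-CD40 in set B it went from 1 to 4 and 4 in GC (0 with no filter) and from 1 to 3 and 4 in naive cells. Between cell types, the block moved the anti-IgM effect from 2 to 4 and 4 (1 with no filter), the addition of IL-21 from 1 to 2 and 2, and the addition of anti-IgM from 1 to 4 and 5. It moved the departure from 1 to 2 and 2, with 0 under plain moderation and 2 with low values raised to 0. For 4 h against 2 h without stimulus in naive cells it went from 1 to 2 and 3. The block changed no other count of members by over 1.5 times. Over all genes the header block moved 22 of 34 counts by over 1.5 times, by up to 22.21 times. With header numbers crossed between the cell types, 5 members differed in unstimulated level and 7 in level under anti-CD40.

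Leaving out 1 library at a time gave 0 to 2 members for 4 h against 2 h in set B GC and 0 to 1 in naive cells, 0 to 2 for the naive anti-CD40 effect at 4 h against 2 h, and 3 to 5 for anti-IgM in GC. It gave 2 to 3 for the naive departure and 0 to 2 for its difference between cell types. Differences between cell types gave 1 to 2 members for anti-IgM, for its addition and for that of IL-21. The level under anti-CD40 in set B gave 4 to 5, against 6 with all libraries. Over all genes 71 of 370 such counts moved by over 1.5 times. Depth is unknown, and groups hold 2 or 3 libraries. Set A and set B appear to have been scaled apart, and the libraries of set B may not share a single scale either. Within set A, GC libraries of the same number had deviations correlated between -0.34 and 0.24, so the numbers do not pair them.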
